A study of Rattus norvegicus with 6 samples.

Results

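The miR-221 and miR-222 genes gave 4 of the 1289 rows of the deposited miRNA table: rno-miR-222-3p, rno-miR-221-3p, rno-miR-221-5p and rno-miR-222-5p. They were chosen by name, as every row whose identifier reads rno-miR-221 or rno-miR-222, and are written below without the prefix for rat. Known rat miRNAs fill 584 rows, and predicted ones, numbered by the authors, fill 705. The small RNA came from PC12, a line derived from rat pheochromocytoma that resembles chromaffin cells and is used as a model of neurons. Per the labels, 3 libraries form a group named EN and 3 a group named EC, and neither abbreviation is spelled out. The title of the series names Netrin-1, exosomes of endothelial cells and repair of peripheral nerve, but no label gives a treatment, dose or time for either group, nor says that replicates came from separate cultures. P-values therefore measure the spread between these libraries, which may be technical.

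A miRNA gene is transcribed as a hairpin, from which a short duplex of a 5p and a 3p arm is cut. One arm, the guide, is kept in the Argonaute protein and pairs with mRNAs through its seed, and the other is mostly degraded. MiR-221 and miR-222 are neighbouring genes known to be processed from a shared primary transcript. Their 3p arms are the guides and are known, in human cells, to repress the mRNAs of the cell cycle inhibitors p27 and p57 and of the receptor KIT. In PC12 cells nerve growth factor is known to raise both miRNAs, and in Schwann cells they are known to rise after nerve injury.

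All 4 rows matched a mature sequence in RefSeq. The sequences below are shown because the 3p arms share their seed and the 5p arms do not. Each is written 5′ to 3′ from the GRCr8 build, where both genes lie on the plus strand of chromosome X, and capitals mark bases 2 to 8, the seed.
miR-222-3p: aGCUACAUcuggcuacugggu
miR-221-3p: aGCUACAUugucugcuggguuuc
miR-221-5p: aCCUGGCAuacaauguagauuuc
miR-222-5p: gGCUCAGUagccaguguagau
The 3p arms had the same first 8 bases and, set side by side from the 5′ end, the same base at 11 of 21 positions. No other mature rat miRNA in the RefSeq table, of 693 names, had this seed. The 5p arms had the same base at 5 of 21 positions, and neither of their seeds occurred in another mature rat miRNA of that table. Their longest shared run was the 7 bases uguagau, from base 15 of miR-222-5p and base 14 of miR-221-5p.

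The hairpins, shown to place the arms whose counts differ so widely, carry both mature arms in capitals.
Mir222: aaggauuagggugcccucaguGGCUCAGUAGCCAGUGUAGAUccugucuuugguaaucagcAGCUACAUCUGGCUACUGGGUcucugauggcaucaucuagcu
Mir221: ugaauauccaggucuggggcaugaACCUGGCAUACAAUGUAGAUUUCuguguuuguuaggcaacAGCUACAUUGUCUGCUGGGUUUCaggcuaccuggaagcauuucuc
In the 103-base Mir222 hairpin the 5p arm spans bases 22 to 42 and the 3p arm bases 62 to 82. In the 109-base Mir221 hairpin the arms span bases 25 to 47 and 65 to 87. In the same annotation 2 long non-coding RNA genes and 0 other miRNA genes overlap each of the pair. Newly named rows and the known rows without a RefSeq sequence could not be placed.

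All 4 rows passed the filter on low counts. They were read in libraries of 4521694 to 5371351 miRNA counts in EN and 6153582 to 6554639 in EC. MiRNA counts made up 25.8 ± 0.97 percent of the library total behind the deposited values in EN and 31.9 ± 0.90 percent in EC (SD, n = 3; two-sided exact permutation p = 0.1, the smallest that 3 against 3 libraries allow). For this reason each level is given as counts per 1000000 of the summed miRNA counts (CPM) and, beside it, as the deposited value per 1000000 of that larger total (RPM). Of 8 neuroendocrine markers, 0 of the 7 tested passed, where 3.98 percent of all rows tested were called in either direction. Those 8 summed to 14514 to 18052 CPM in EN and 13785 to 15499 CPM in EC. Most of this was miR-218a-5p, at 10664 ± 1625 CPM in EN and 9471 ± 890 CPM in EC. MiR-129-5p followed, at 4072 ± 297 CPM in EN and 4163 ± 265 CPM in EC. MiR-7a-5p, typical of neuroendocrine cells, stood at 1333 ± 143 CPM in EN and 1063 ± 77.4 CPM in EC. The marker miR-375-3p was near 0, at 2.73 ± 0.44 CPM in EN and 2.68 ± 0.64 CPM in EC. MiR-183-5p, miR-96-5p and miR-7b were also low, at means of 3.70, 2.91 and 0.38 CPM over all libraries.

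MiR-222-3p was the dominant product of the locus. In the EN libraries it had 395980, 346074 and 363560 counts, or 73721, 76536 and 79843 CPM. In the EC libraries it had 355882, 358243 and 351304 counts, or 55320, 58217 and 53596 CPM. Every EN library lay above every EC library, with group means of 76700 ± 3064 CPM in EN and 55711 ± 2335 CPM in EC (SD, n = 3), a ratio of 1.38. It was the row of rank 2 in each EN library and of rank 3, 2 and 3 in the EC libraries. In edgeR's quasi-likelihood test, with p-values adjusted by Benjamini-Hochberg over 628 rows, miR-222-3p rose in EN by a log2 fold change of 0.48 (SE 0.067, adjusted p = 0.0167). It was the 1 of the 4 rows to pass and 0 fell, where 2.07 percent of all rows tested were called higher, 1.91 percent lower and 3.98 percent in either direction.

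The call for miR-222-3p depended on the divisor. In RPM it stood at 19805, 19130 and 20355 in the EN libraries and 18051, 18754 and 16565 in the EC libraries, again with no overlap between the groups, but with a ratio of means of 1.11. With library totals implied by RPM in the same test its log2 fold change was 0.15 (SE 0.082, adjusted p = 0.245). With that divisor 0 of the 4 rows were called higher, against 1.91 percent of all rows. That divisor moved the median log2 fold change of all rows to -0.31, against 0.02 with TMM scaling. A change of divisor shifts all rows by nearly the same amount. The log2 fold change of miR-222-3p relative to the median row, 0.46 with either divisor, thus stayed alike by construction. The adjusted p was 0.0617 without EN replicate 2 and 0.0678 without EN replicate 3, with log2 fold changes of 0.50 and 0.46.

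**Figure D1:**
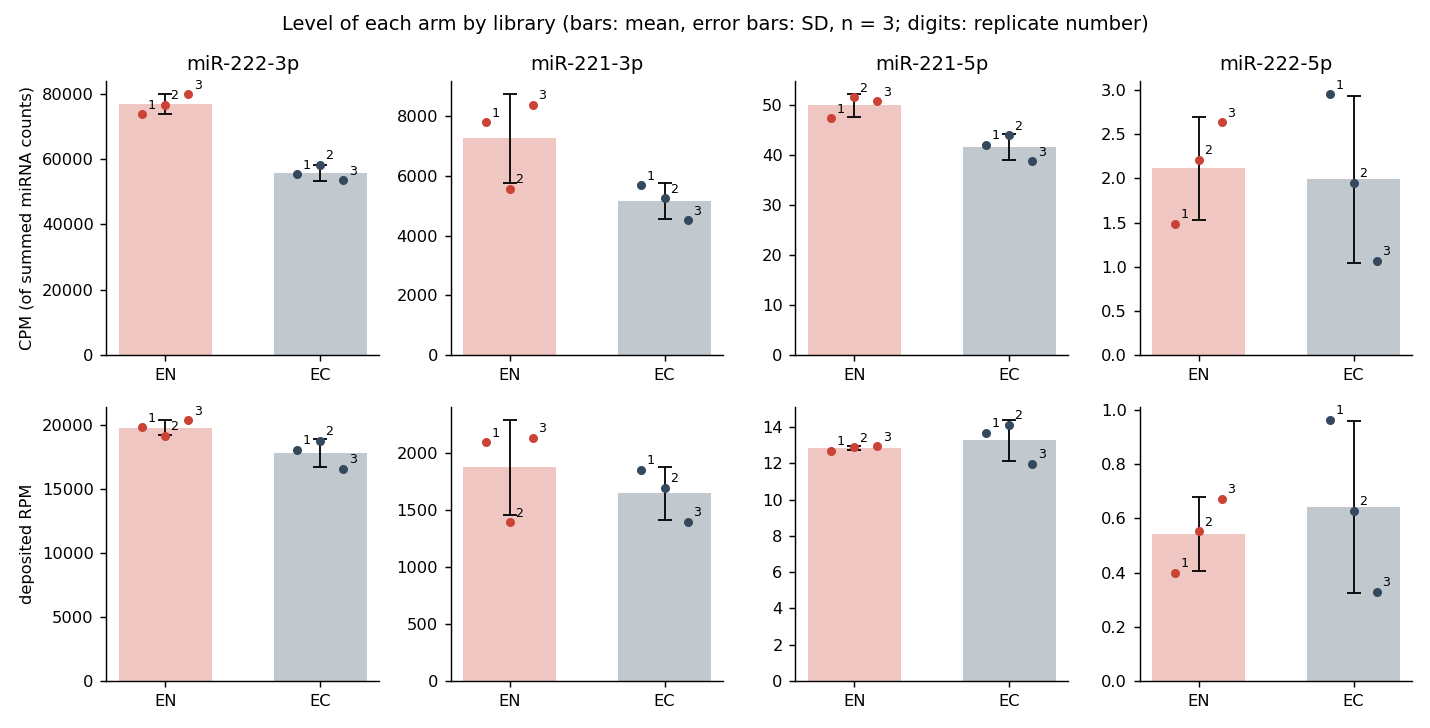
Level of the 4 rows in each library (points, with replicate numbers), with group mean (bar) and SD (n = 3), as CPM of summed miRNA counts above and as deposited RPM below. MiR-222-3p of EN lies above EC on both scales, while miR-221-5p does so in CPM and overlaps in RPM.

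MiR-221-3p, the guide with the same seed, was the less abundant of the pair. In the EN libraries it had 41861, 25192 and 38134 counts, or 7793, 5571 and 8375 CPM. In the EC libraries it had 36558, 32348 and 29607 counts, or 5683, 5257 and 4517 CPM. EN replicate 2 lay within the range of EC, below EC replicate 1, and the other EN libraries lay above every EC library. Its log2 fold change of 0.51 (SE 0.16) was close in size to that of miR-222-3p, but with a larger error it did not pass edgeR's test (adjusted p = 0.107). Without EN replicate 2 the log2 fold change was 0.69 (SE 0.13, adjusted p = 0.0922). In RPM the means were 1874 ± 417 in EN and 1648 ± 232 in EC (SD, n = 3), and with library totals implied by RPM the log2 fold change was 0.19 (SE 0.19, adjusted p = 0.552).

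The guides differed in how evenly their libraries lay. Within groups the SD of log2 CPM was 0.059 for miR-222-3p and 0.25 for miR-221-3p, against a median of 0.19 over the 189 rows with a mean of at least 100 CPM. Of these rows, 4.23 percent had an SD no larger than that of miR-222-3p, which is counted among them.

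MiR-221-5p, the star or passenger arm of miR-221, had 254, 233 and 231 counts in the EN libraries, or 47.3, 51.5 and 50.7 CPM. In the EC libraries it had 270, 270 and 254 counts, or 42.0, 43.9 and 38.8 CPM. The groups did not overlap in CPM, as in 13.4 percent of all rows tested with EN above EC. The log2 fold change of 0.29 (SE 0.14) did not pass edgeR's test (adjusted p = 0.271). In RPM the EN libraries lay between 12.7 and 12.9 and the EC libraries between 11.98 and 14.1, so that the groups overlapped. With library totals implied by RPM the log2 fold change turned to -0.047 (SE 0.15, adjusted p = 0.861). Relative to the median row it was 0.27 with TMM scaling and 0.26 with the implied totals.

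MiR-222-5p, the star arm of miR-222, was close to the limit of counting. It had 8, 10 and 12 counts in the EN libraries and 19, 12 and 7 in the EC libraries, with the EN values inside the range of EC. Summed over each group this was 30 counts in EN, or 2.08 CPM (exact Poisson 95 percent interval 1.40 to 2.96), and 38 counts in EC, or 1.99 CPM (1.40 to 2.72). These intervals cover counting error only. The log2 fold change was 0.10 (SE 0.46, adjusted p = 0.918) by edgeR's test and -0.24 with library totals implied by RPM. No difference was detectable at this depth.

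Of the 4 rows, 2 had EN values all above the EC values in CPM, as did 13.4 percent of all rows tested. In RPM 1 of the 4, miR-222-3p, had them, as did 5.73 percent of all rows.

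**Figure D2:**
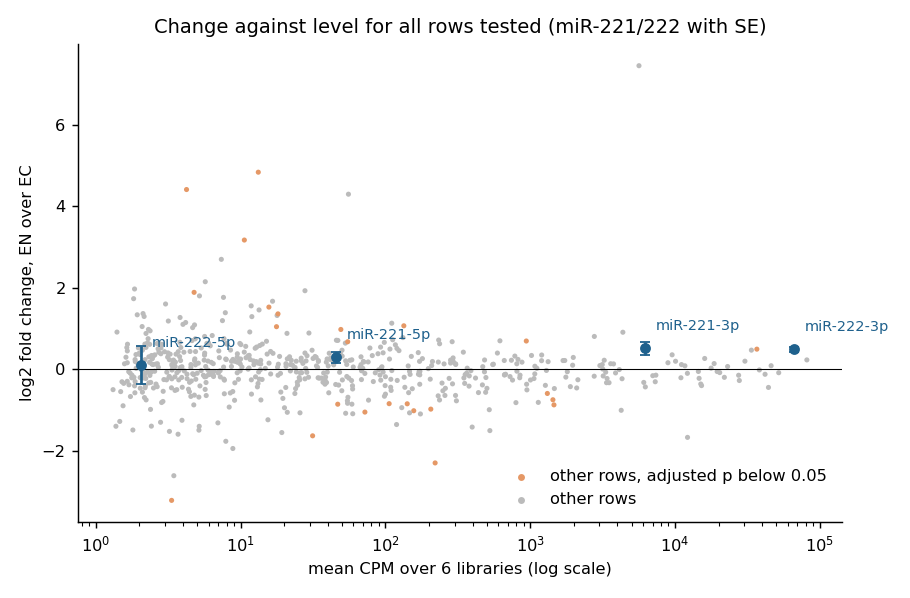
Log2 fold change of EN over EC against mean CPM for the 628 rows tested, with SE for miR-221 and miR-222. Both 3p arms lie at 0.48 and 0.51 among the most abundant rows, and the 5p arms at 0.29 and 0.10 among rows of lower level.

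Summed over the 4 rows, the cluster took 8.16, 8.22 and 8.83 percent of miRNA counts in the EN libraries and 6.10, 6.35 and 5.82 percent in the EC libraries. The mean was 8.40 ± 0.37 percent in EN and 6.09 ± 0.27 percent in EC (SD, n = 3; two-sided exact permutation p = 0.1, the smallest possible). Of the library total implied by RPM, the cluster took 2.17 ± 0.10 percent in EN and 1.95 ± 0.13 percent in EC, with the same p. MiR-222-3p alone made up 90.4 to 93.2 percent of the counts of the cluster in EN libraries and 90.6 to 92.2 percent in EC libraries, so the sum follows that row. Within the RefSeq table the 3p arms are the 2 miRNAs with this seed, but newly named rows came with no sequence to compare.

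Ratios of rows within a library need no scaling, and they show how both genes and both arms stood to each other. MiR-222-3p had 9.46, 13.7 and 9.53 counts for each count of miR-221-3p in the EN libraries, and 9.73, 11.1 and 11.9 in the EC libraries. The highest ratio was that of EN replicate 2, where miR-221-3p was low, and the groups overlapped. The log2 ratio was 3.42 ± 0.31 in EN and 3.44 ± 0.14 in EC (SD, n = 3), a difference of -0.015 (exact permutation test over libraries, two-sided p = 0.8). A difference between the genes in their change from EC to EN was thus not detected, in a design whose smallest p is 0.1.

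For the 5p arms the order of the genes was the opposite. MiR-221-5p had 31.8, 23.3 and 19.3 counts for each count of miR-222-5p in the EN libraries, and 14.2, 22.5 and 36.3 in the EC libraries. The EC libraries covered the whole range of EN, and the log2 ratio of miR-222-5p to miR-221-5p differed by -0.086 (two-sided exact permutation p = 0.9, n = 3 each), with as few as 7 counts of miR-222-5p in a library.

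The arms of miR-222 were thus far more unequal than those of miR-221. MiR-222 had 49498, 34607 and 30297 counts of 3p for each count of 5p in the EN libraries, and 18731, 29854 and 50186 in the EC libraries. MiR-221 had 165, 108 and 165 counts of 3p for each count of 5p in the EN libraries, and 135, 120 and 117 in the EC libraries. Among 125 known miRNAs with a mean of at least 5 counts in both arms, miR-222 was the most strongly 3p-dominated, with a mean log2 ratio of 3p to 5p of 14.90, and miR-221 held place 9 at 7.05. The 3p arm was the higher in 45 of these 125.

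Arm use itself was not called different between the groups. For miR-221 the log2 of 5p over 3p differed by -0.21 (SE 0.21, limma, adjusted p = 0.604 over 92 miRNAs), where 5.43 percent of miRNAs were called. EN replicate 2 lay on the other side of the EC libraries from EN replicates 1 and 3, and without it the difference was -0.42 (SE 0.16, adjusted p = 0.233). MiR-222 did not enter that test, which asked for a mean of 20 counts in both arms. With a minimum of 5 counts its difference was -0.28 (SE 0.38, adjusted p = 0.709 by limma).

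**Figure D3:**
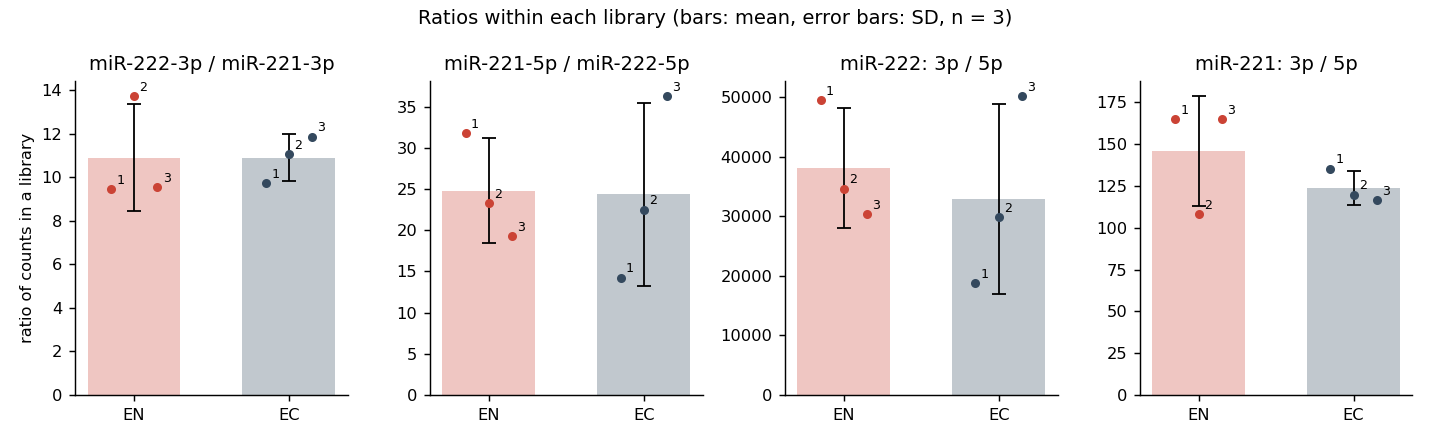
Ratios of counts within each library (points, with replicate numbers), with group mean (bar) and SD (n = 3), for the 3p arms of both genes, the 5p arms of both genes, and the arms of each gene. EN and EC overlap in all 4 panels, and EN replicate 2 stands apart from the other EN libraries in the first and last.

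Among known miRNAs, miR-222-3p held place 2 by mean CPM, between miR-22-3p and let-7c-5p. MiR-22-3p stood at 86974 ± 2484 CPM in EN and 75497 ± 2424 CPM in EC, with a log2 fold change of 0.23 (adjusted p = 0.0937 by edgeR). Let-7c-5p, a let-7 family guide, stood at 49933 ± 3537 CPM in EN and 53926 ± 4172 CPM in EC (SD, n = 3). In EN the level of miR-222-3p lay beyond the spread of both neighbours, while in EC it was within the spread of let-7c-5p. MiR-221-3p held place 36. Its nearest neighbours were miR-3588, at 5198 ± 8963 CPM in EN and 7258 ± 12465 CPM in EC, and miR-140-5p, at 5349 ± 586 CPM in EN and 6802 ± 549 CPM in EC (SD, n = 3). The SD of miR-3588, whose gene overlaps that of a miR-125b, exceeded its mean in both groups, and the levels of all 3 overlap within EN.

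The rows whose course over the 6 libraries was most like that of miR-222-3p were sought among 162 known miRNAs with a mean of at least 100 CPM. Likeness was the mean absolute difference of log2 levels, each relative to the row's own mean, so that 0 is an identical course. Rows picked in this way share the difference of miR-222-3p between EN and EC by choice. The closest were miR-218b at 0.057, miR-23a-3p at 0.058, miR-25-3p at 0.061, miR-99b-3p at 0.061 and miR-423-3p at 0.065, against a median of 0.32 over the 162. The gene of miR-218b overlaps a miR-218 gene. MiR-23a-3p, which is clustered with miR-27a, also passed edgeR's test (adjusted p = 0.0256), at 42581 ± 1546 CPM in EN and 30784 ± 2321 CPM in EC (SD, n = 3). MiR-25-3p, of the cluster with miR-106b and miR-93, stood at 391.8 ± 41.8 CPM in EN and 298 ± 13.1 CPM in EC. These cluster mates did not share the rise, with log2 fold changes of -0.057 for miR-27a-3p, -0.85 for miR-106b-5p and 0.088 for miR-93-5p. MiR-221-3p, the partner from the same transcript, stood at 0.17, and 30 of the 162 rows were closer than it. In EN replicate 2 miR-221-3p lay 0.15 below its own mean on the log2 scale, where miR-222-3p lay 0.21 above.

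**Figure D4:**
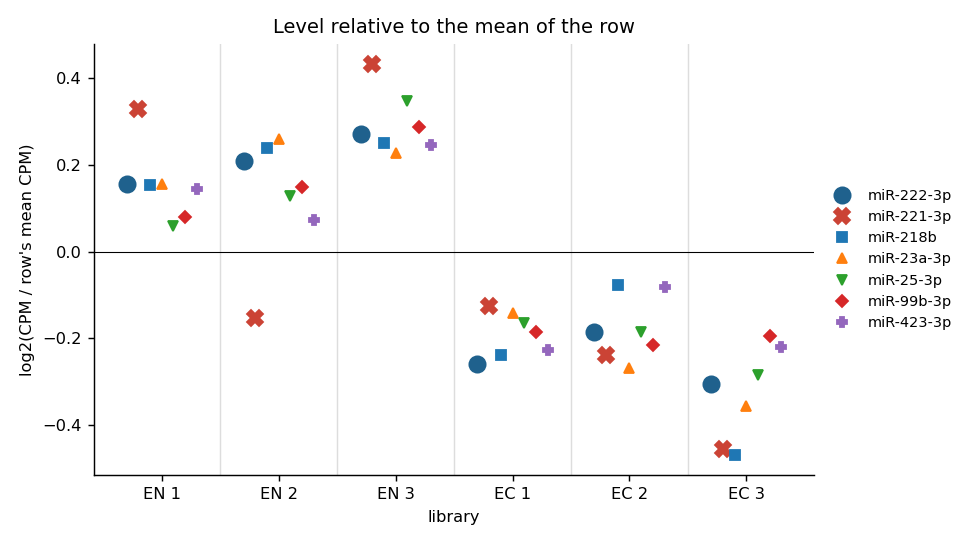
Level of miR-222-3p, miR-221-3p and the 5 rows most like miR-222-3p in each library, as the log2 of CPM over the row's mean CPM. MiR-222-3p and these 5 rows are above their mean in each EN library and below it in each EC library. The 5 were chosen for their likeness in these same libraries. MiR-221-3p is below its mean in EN replicate 2.

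Other miRNAs that growth factors or neuronal activity are known to induce gave no calls, where 3.98 percent of all rows were called in either direction. In that list 10 of 12 names were tested, and 1 of them, miR-222-3p, rose. The 6 tested outside the miR-221 and miR-222 genes did not pass. Their median log2 fold change was -0.060 against 0.020 over all rows, with rows of both signs. Values were positive for miR-212-3p, miR-146a-5p (0.22) and miR-21-5p (0.085). They were negative for miR-212-5p, miR-132-5p (-0.41) and miR-21-3p (-0.21). The arms of miR-212, both at a few CPM, went opposite ways. The log2 fold change was 1.15 for miR-212-3p (adjusted p = 0.0776 by edgeR) and -1.25 for miR-212-5p (adjusted p = 0.0710). Among the names not tested was miR-132-3p, at 3.33 ± 2.33 CPM in EN and 1.46 ± 0.22 CPM in EC. MiR-21-5p, which growth factor signalling is known to induce, was the most abundant of the 6, at 47017 ± 3357 CPM in EN and 45024 ± 5381 CPM in EC (SD, n = 3). MiR-146a-5p, known as an inflammation-induced regulator, stood at 3461 ± 377 CPM in EN and 3018 ± 138 CPM in EC.

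In the list of nerve injury and Schwann cell miRNAs, 21 of 29 names were tested, with a median log2 fold change of -0.21, or -0.32 for the 19 outside both genes, against 0.020 over all rows. MiR-222-3p rose and 1 of the 19 fell, where 2.07 percent of all rows were called higher and 1.91 percent lower. The 1 that fell was miR-338-3p, a miRNA of oligodendrocyte and Schwann cell differentiation. It stood at 99.99 ± 19.3 CPM in EN and 182.6 ± 12.4 CPM in EC (log2 fold change -0.85, adjusted p = 0.0471 by edgeR), and its gene overlaps that of miR-3065, so that reads of both cannot be told apart without a stated strand rule. The most abundant of the 19 after miR-21-5p was miR-204-5p, at 32185 ± 2188 CPM in EN and 28506 ± 8519 CPM in EC (SD, n = 3), which did not pass.

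In the list of miRNAs known, mostly from human cells, to target mRNAs of cell cycle inhibitors, 13 of 14 names were tested, with a median log2 fold change of -0.041, or -0.34 for the 11 outside both genes, against 0.020 over all rows. With 2.07 percent of all rows called higher and 1.91 percent lower, 1 member was called in each direction. MiR-222-3p rose and miR-106b-5p, which targets the mRNA of the inhibitor p21, fell, at 75.0 ± 2.37 CPM in EN and 137 ± 10.3 CPM in EC (log2 fold change -0.85, adjusted p = 0.0228 by edgeR). MiR-24-3p, the most abundant of the 11 outside both genes, stood at 37015 ± 1055 CPM in EN and 51226 ± 15965 CPM in EC (SD, n = 3) and did not pass, and a gene of it overlaps that of miR-3074. The lists were described by counts and medians alone, and the members of the lists overlap.

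MiR-221 and miR-222 are also abundant in endothelial cells, the source of the exosomes named in the title. Of the defining endothelial rows, miR-126a-3p stood at 1094 ± 96.5 CPM in EN and 1057 ± 30.1 CPM in EC (SD, n = 3), with a log2 fold change of 0.072 that did not pass (adjusted p = 0.731 by edgeR). MiR-126a-5p fell, at 32.9 ± 4.80 CPM in EN and 60.7 ± 5.15 CPM in EC (adjusted p = 0.0471), and the gene of both arms overlaps another miR-126 gene in the RefSeq table. The 8 tested endothelial markers outside both genes summed to 136967 to 144447 CPM in EN and 133619 to 163484 CPM in EC. This sum came mostly from rows other than the defining arms. The most abundant were miR-24-3p, at a mean of 44121 CPM over all libraries, and miR-23a-3p, at 36682 CPM. Among the 8, 1 was higher, miR-23a-3p, and 1 lower, miR-126a-5p, against 2.07 and 1.91 percent of all rows, and the median log2 fold change was -0.070. Of 9 blood markers 7 had a row and 2 were tested. The 7 summed to 158 to 179 CPM in EN and 96.2 to 129 CPM in EC. Most of this was miR-150-5p, at 140 ± 16.8 CPM in EN and 99.9 ± 17.9 CPM in EC, which did not pass (adjusted p = 0.151 by edgeR). MiR-451-5p, of red blood cell precursors, rose to 23.2 ± 6.55 CPM in EN, against 8.16 ± 2.63 CPM in EC (adjusted p = 0.0471 by edgeR). The rest were near 0 and went both ways. MiR-142-3p stood at 1.10 CPM in EN and 1.61 CPM in EC, and miR-486 at 0.33 and 0.21 CPM. Of 6 fibroblast and smooth muscle markers 3 were tested and 0 passed. The 5 with a row summed to 207 to 223 CPM in EN and 164 to 187 CPM in EC. Most of this was miR-199a-3p, at 191 ± 10.2 CPM in EN and 146 ± 11.3 CPM in EC (log2 fold change 0.41, adjusted p = 0.107 by edgeR). The other rows tested had negative log2 fold changes, -0.068 for miR-199a-5p and -1.40 for miR-214-3p, which stood at 1.30 CPM in EN and 3.53 CPM in EC. Near 0 was miR-143-3p, at 1.29 CPM in both groups. The part of other cells or of exosome cargo in the level of miR-222-3p was not tested, and fewer cells of a type and less RNA per cell cannot be told apart in these bulk libraries.

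**Figure D5:**
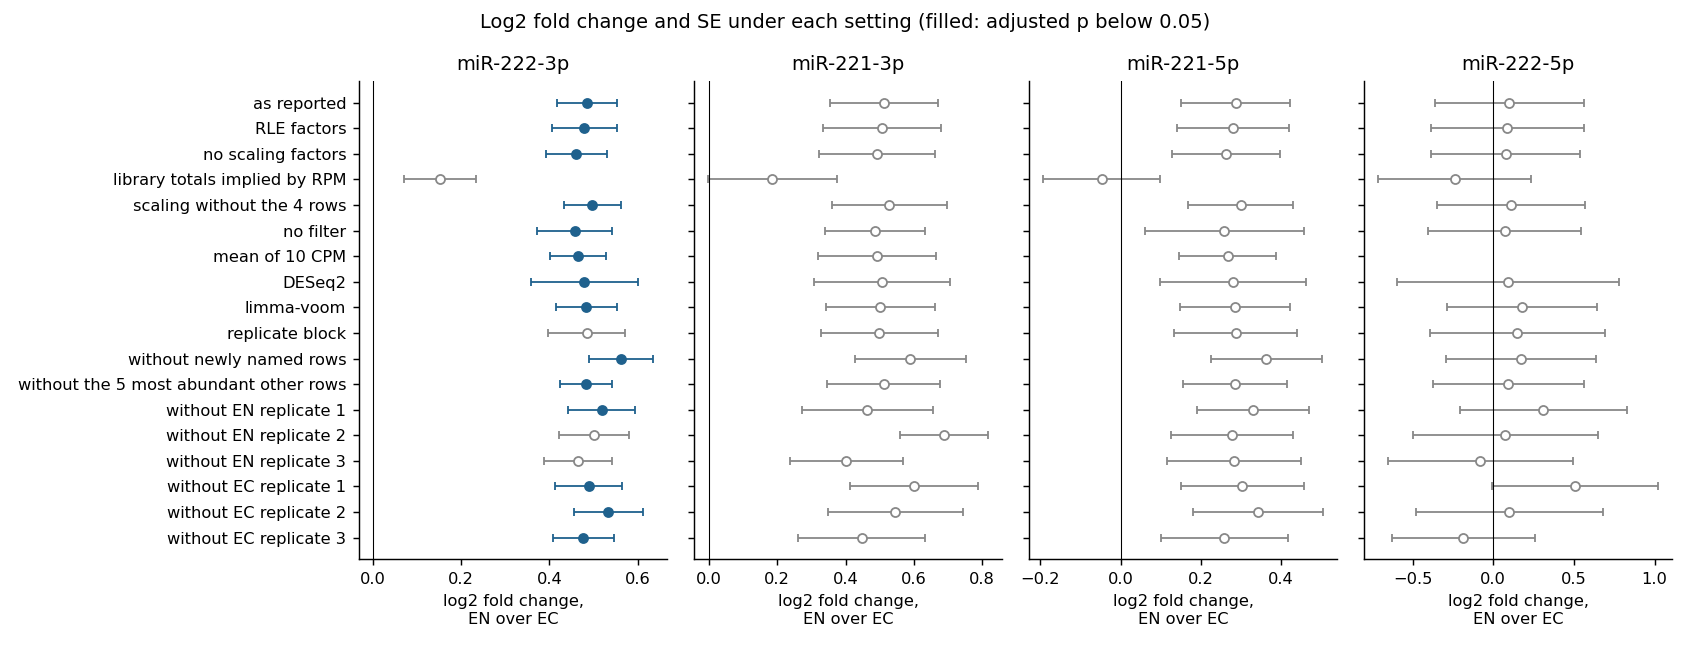
Log2 fold change of EN over EC with SE for each of the 4 rows under each setting, where filled points have an adjusted p below 0.05. MiR-222-3p is positive throughout and lies at 0.15 with library totals implied by RPM, and the other 3 rows pass in no setting shown.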

How the data were processed

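The authors deposited whole-number read counts per mature miRNA for 6 libraries and beside each an RPM value. Each deposited RPM value equals its count over 1 library total within 0.0015 in 100 percent of rows, so whole reads were recovered, and the totals run from 17861218 to 21207786 reads. HISAT2 2.0.5 and Rnor 6.0 stand in the submitters' processing notes. Not given in the sources used here are the counter, the annotation, the strand rule and how reads matching several places were treated. The authors' mean counts (not whole, as for an expected count) and mean RPM per group, also deposited, were not used.

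Counts were tested with edgeR 4.0.16 (R 4.3.3): filterByExpr, TMM factors from 0.968 to 1.02, robust quasi-likelihood test, Benjamini-Hochberg adjustment over 628 rows, threshold 0.05. SE is the absolute log2 fold change over the square root of F. CPM values printed use summed miRNA counts without TMM. Arm ratios, log2((5p + 1)/(3p + 1)), were tested with limma 3.58.1. Other ratios and shares had two-sided exact permutation tests over libraries. Both model tests were first checked on simulated data.

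Rows named were the 4 members, the 5 most alike, neighbours in level, and list members called or most abundant. Neighbours and list members beyond those that a result turned on were left out. Members and lists were chosen with earlier results of these data known. Sequences are RefSeq's, GRCr8, whose coordinates are not printed since the files' build differs. Tables, exact tests and figures used pandas 2.3.3, matplotlib 3.10.9 and scipy 1.17.1 under Python 3.11.15.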

Additional observations from a re-analysis of the deposited data

How the results depend on the processing

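MiR-222-3p kept its positive sign in all 17 alternatives and its call in 13. The call was lost with a replicate block by number (0.48, adjusted p = 0.113), with library totals implied by RPM (0.15) and without EN replicate 2 or 3. Without 1 library it ranged from 0.46 to 0.53, with adjusted p from 0.0146 to 0.0678, and in the other alternatives from 0.15 to 0.56, with adjusted p from 0.00128 to 0.245. MiR-221-3p was positive and not called in all 17, at 0.40 to 0.69 without 1 library. MiR-221-5p was at 0.26 to 0.34 without 1 library and turned to -0.047 with library totals implied by RPM. MiR-222-5p turned to -0.24 there and ranged from -0.18 to 0.51 without 1 library. It had no value at a minimum mean of 10 CPM and no adjusted p in DESeq2 1.42.0. The implied totals change the divisor by construction, and the cause of the other shifts was not tested.

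The 25 calls over all rows were 13 higher and 12 lower. They became 95 (12 higher, 83 lower) with implied totals, 44 without a filter, 88 with DESeq2 (39 higher, 49 lower), 2 with the replicate block, and 2 to 39 without 1 library. The libraries whose absence moved the count by over 1.5 times were EN replicate 2 (3 calls), EN replicate 3 (2), EC replicate 1 (10), EC replicate 2 (39) and EC replicate 3 (8). With the 4 rows left out of scaling, 18 were higher and 10 lower. The 5 arm ratio calls became 0 with the replicate block and 0 to 9 without 1 library. The log2 ratio of miR-222-3p to miR-221-3p ranged from -0.19 to 0.076 and that of miR-222-5p to miR-221-5p from -0.39 to 0.22 without 1 library. The gap in the share of the 4 rows ranged from 2.10 to 2.44 percentage points and was 0.22 of the implied total.

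Pairing by replicate number was neither shown nor excluded. Libraries of the same number had deviations that correlated at 0.22, -0.023 and 0.15 over 189 rows, and those of different numbers at -0.34 to 0.18. The highest value was that of replicate 1 of both groups. With 3 libraries a group, each centred on the group mean, such values cannot decide it. EC replicate 2 correlated best with EN replicate 1, and EN replicate 2 with EC replicate 3. Pseudocounts on RPM were not tried, as counts were tested. Depth limits miR-222-5p, with 7 to 19 counts a library.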
